A study of Mus musculus with 10 samples.

Results

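The genes described here are 39 genes of endothelial identity and endothelial activation, measured in whole aorta of male Npas2 mutant mice and of male wild-type mice. They were chosen by name from a list that was drawn up with earlier results of these data known, though the choice rule uses no measured value. Each was read from the deposited probe set whose platform annotation gives its symbol, taking the probe set of highest mean over all 10 arrays where there were several. Of the 39, 38 had a probe set of their own. Ly6c1 was represented only by a probe set that the annotation shares with Ly6c2, so no value is given for it. After a filter on dim probe sets 36 were tested, of 10945 named genes tested on the whole array. The 2 others, Dll4 and Sele, exceeded the median level of their own array on fewer than 5 of the 10 arrays.

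The NPAS2 mutant group held 5 arrays (F12, F13, F18, F19 and F20) from mice on a C57Bl/6J background. The wild-type group held 5 arrays (F11, F14_2, F15, F16 and F17) from C57Bl/6 mice. The groups thus carry different strain labels, so a difference of background and the mutation cannot be told apart here. Npas2 encodes a clock transcription factor that binds DNA as a partner of Bmal1, and the kind of mutation is not given in the sources used here. Mice of both groups lived for 2 weeks or longer on 12 h of light and 12 h of darkness, then spent 30 h or longer without light, and were killed at zeitgeber time 14 h under anaesthesia, with the vessels rinsed by saline and then water through the heart before the aorta was dissected. The labels give no ages. The labels describe the tissue both as thoracic aorta and as a piece that reached from the arch to beyond the femoral branching. They do not state that the arrays of a group came from different mice, so every p value measures the spread between these arrays, which may be technical. RNA was biotin-labelled and read on Affymetrix MOE 430V2 arrays, and all levels are the authors' log2 values. Values in every array are listed in the order given above.

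The endothelium is the single layer of cells that lines the inner face of the aorta and of every smaller vessel in its wall and in the tissue around it. Its cells are held together by VE-cadherin and PECAM-1, respond to VEGF through tyrosine kinase receptors, are kept quiescent by the angiopoietin receptor Tie2, and are specified by ETS, SOX and GATA transcription factors. When activated by inflammatory signals they display selectins, ICAM-1 and VCAM-1, to which circulating leukocytes attach. Most RNA of an aorta comes from smooth muscle and from the connective tissue and fat outside it.

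The arrays also differed in the levels of genes that mark other tissues. Contractile smooth muscle genes, the defining markers of an aortic wall, had list means between 10.81 and 11.10 on the mutant arrays and between 10.92 and 11.22 on the wild-type arrays, on the log2 scale, and all 9 were tested. The mean of 10 skeletal muscle genes was 11.22, 3.61, 3.29, 9.04 and 9.96 on the mutant arrays, against 3.22, 6.34, 5.68, 9.71 and 3.36 on the wild-type arrays. Mutant F12, F19 and F20 and wild-type F16 thus stood apart from the other 6, among which wild-type F14_2 and F15 were highest. The mean of 9 brown fat genes lay between 8.90 and 9.58 on the mutant arrays and between 7.97 and 8.64 on the wild-type arrays, with no overlap. Whether the brown fat values reflect more of that tissue or other expression within it was not tested. Npas2 itself, on its brighter probe set, had a level of 3.43 ± 0.03 in the mutant and 3.71 ± 0.24 in wild type (SD, n = 5 each), with a limma adjusted p of 0.249, and because the part of the transcript that is read is unknown here it does not check the labels.

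No endothelial gene passed the test. When limma p values were adjusted by Benjamini-Hochberg over the 22340 probe sets tested, 0 of the 36 tested endothelial genes had an adjusted p under 0.05, where 48 probe sets, 0.215% of all tested, did. The per-gene one-way analysis that the series design names also called 0 of the 36. At an unadjusted limma p under 0.05 there were 6 of the 36, or 16.7%, close to the 15.3% of all tested probe sets that reached that level. They were Emcn, Apln and Plvap, with a higher mean in the mutant, and Clec14a, Pecam1 and Lyl1, with a lower one. Mutant means were higher for 16 of the 36 and lower for 20, so 55.6% were lower, against 57.6% of all tested probe sets. After quantile normalisation 17 of the 36 were lower, beside 50.5% of all tested probe sets, and after median centring 22, beside 63.2%. The median log2 change was -0.02 over the endothelial genes and -0.03 over all tested probe sets. The groups did not overlap for 2 of the 36 (5.56%), against 4.01% of all tested probe sets. Counts over the further gene lists below stand beside these same shares.

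How precisely each change was measured can be read from the intervals, which are not adjusted for the number of probe sets tested. They do not give the size of change that the adjusted test could have called. The standard errors of the 36 log2 changes ran from 0.06 to 0.24, with a median of 0.12. The 95% interval of the change lay wholly between -0.5 and 0.5 for 26 of the 36 genes and between -1 and 1 for all 36. It included 0 for 30. The changes themselves ran from -0.47 (Clec14a) to 0.50 (Emcn), and the adjusted p values from 0.164 to 0.996. An absent call does not show that the groups were alike for a gene, and the intervals are those of the deposited level, which may follow the transcript poorly where a probe set is dim. Kdr and Tal1 lay at percentiles 50.6 and 52.3 of all levels on their arrays, so their intervals set no limit on a change in RNA. Apln, Flt1 and Lyl1 were not much brighter, at percentiles 59.2, 61.1 and 61.7. In whole aorta, fewer endothelial cells and less RNA per endothelial cell cannot be told apart.

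**Figure D1:**
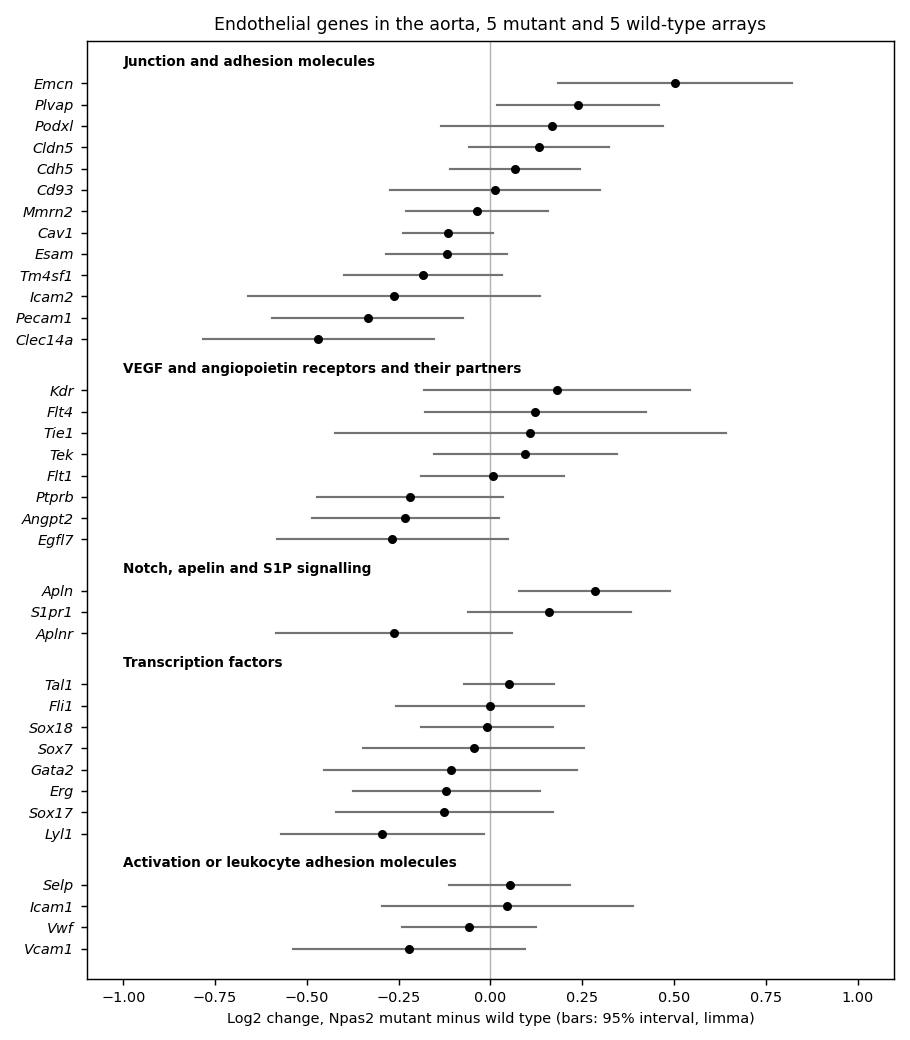
Log2 change of each of the 36 tested endothelial genes, Npas2 mutant minus wild type (x axis), with genes on the y axis grouped by role. Points are limma estimates and bars their 95% intervals. The bars of Emcn, Plvap and Apln lie above 0, those of Pecam1, Clec14a and Lyl1 below it, and the other 30 cross it.

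Of the 13 tested junction and adhesion molecules 4 were at an unadjusted p under 0.05 (30.8%, against 15.3% of all tested probe sets), and for 2 the groups did not overlap (15.4%, against 4.01%). No test compared these shares. Emcn encodes endomucin, a sialomucin of capillary and venous endothelium that hinders leukocyte attachment. Its levels were 6.46, 6.24, 6.33, 6.38 and 6.72 on the mutant arrays, against 5.41, 5.90, 6.12, 6.20 and 5.98 on the wild-type arrays. Every mutant array was above every wild-type array, and the lowest value was that of wild-type F11. The log2 change of Emcn was 0.50 ± 0.14 (SE), a ratio of 1.42, with a 95% interval from 0.18 to 0.82 and a limma adjusted p of 0.164. Separation of this kind, with the mutant higher, was found in 1.5% of all tested probe sets.

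Pecam1 encodes PECAM-1 (CD31), the adhesion molecule of endothelial contacts that platelets and leukocytes also carry. Its levels were 7.80, 7.99, 7.49, 7.94 and 7.35 on the mutant arrays, against 8.10, 8.02, 8.08, 8.02 and 8.03 on the wild-type arrays. The 5 wild-type arrays were close together, and all 5 mutant arrays lay below them, with F18 and F20 lowest. The log2 change was -0.33 ± 0.12 (SE), the interval ran from -0.59 to -0.08, and the limma adjusted p was 0.220. Separation with the mutant lower was found in 2.5% of all tested probe sets. The SD of Pecam1 was 0.281 over the mutant arrays and 0.036 over the wild-type arrays (n = 5 each), the most unequal pair among the 36 genes. Of the platelet genes, Pf4 had a log2 change of 0.23 and Ppbp one of 0.20, both with a higher mean in the mutant and neither passing the test, while Gp6, Gp9 and Itga2b were too dim to test.

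Clec14a encodes a C-type lectin of endothelial cells that binds the matrix protein made from Mmrn2, and both are on the list. Clec14a stood at 5.22, 5.91, 5.60, 5.97 and 5.56 on the mutant arrays, against 6.04, 6.06, 6.20, 5.91 and 6.39 on the wild-type arrays. The groups overlapped through wild-type F16 alone, which lay below mutant F19, and F12 was lowest. Its log2 change was -0.47 ± 0.14 (SE, limma adjusted p = 0.180) on this probe set and -0.17 (adjusted p = 0.541) on its dimmer one. Mmrn2, its ligand, had levels between 7.68 and 8.03 on the mutant arrays and between 7.60 and 7.93 on the wild-type arrays, with a log2 change of -0.04. Cd93, a related lectin that also binds the Mmrn2 protein, had a log2 change of 0.01 ± 0.13 (SE).

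Plvap, Cav1 and Tm4sf1 encode membrane proteins of endothelial surface structures. Plvap makes the diaphragms of caveolae and of fenestrated capillaries, and its levels were 7.01, 6.82, 6.92, 6.88 and 6.87 on the mutant arrays, against 6.38, 6.57, 6.97, 6.63 and 6.77 on the wild-type arrays. Wild-type F15 was within the mutant range, and the other 4 wild-type arrays were below all mutant arrays. The log2 change was 0.24 ± 0.10 (SE, limma adjusted p = 0.288). Cav1 encodes caveolin-1, the coat protein of caveolae, which smooth muscle cells and adipocytes also make in quantity. Cav1 stood at 12.01, 12.15, 12.10, 12.06 and 12.09 on the mutant arrays, against 12.12, 12.22, 12.13, 12.22 and 12.30 on the wild-type arrays. All 5 mutant arrays were below the wild-type mean, though the groups overlapped, and the log2 change was -0.12 ± 0.06 (SE, limma adjusted p = 0.345), or 0.0048 with the brown fat mean as a covariate. Tm4sf1, a tetraspanin-like protein of endothelial cells, had levels of 10.43, 10.67, 10.85, 10.83 and 10.88 on the mutant arrays, against 10.74, 10.99, 10.83, 11.03 and 10.99 on the wild-type arrays. The mutant arrays were below the wild-type mean, F12 most, and the groups overlapped. Each of its 3 tested probe sets had a lower mean in the mutant, with log2 changes of -0.18, -0.20 and -0.26. On the brightest the change was -0.11 without mutant F12 and turned to 0.16 with the brown fat mean as a covariate. On the second of them the groups did not overlap (levels between 7.57 and 7.91 in the mutant and between 7.94 and 8.02 in wild type, limma adjusted p = 0.231).

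Cdh5 encodes VE-cadherin, the cadherin of endothelial adherens junctions and a defining marker of this cell type. Its levels were 5.04, 5.31, 5.23, 5.34 and 5.31 on the mutant arrays, against 5.08, 5.36, 5.25, 5.08 and 5.11 on the wild-type arrays. The groups lay over each other, and the log2 change was 0.07 ± 0.08 (SE), with an interval from -0.11 to 0.24. The other junction and surface genes also overlapped. Cldn5, the claudin of endothelial tight junctions, had a log2 change of 0.13, Podxl, the sialomucin podocalyxin, one of 0.17, Esam, an adhesion molecule of tight junctions, one of -0.12, and Icam2, a leukocyte ligand present on resting endothelium, one of -0.26, with adjusted p values between 0.453 and 0.558. Over the 13 tested genes of this role mutant means were higher for 6 and lower for 7 (5 and 8 after median centring).

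**Figure D2:**
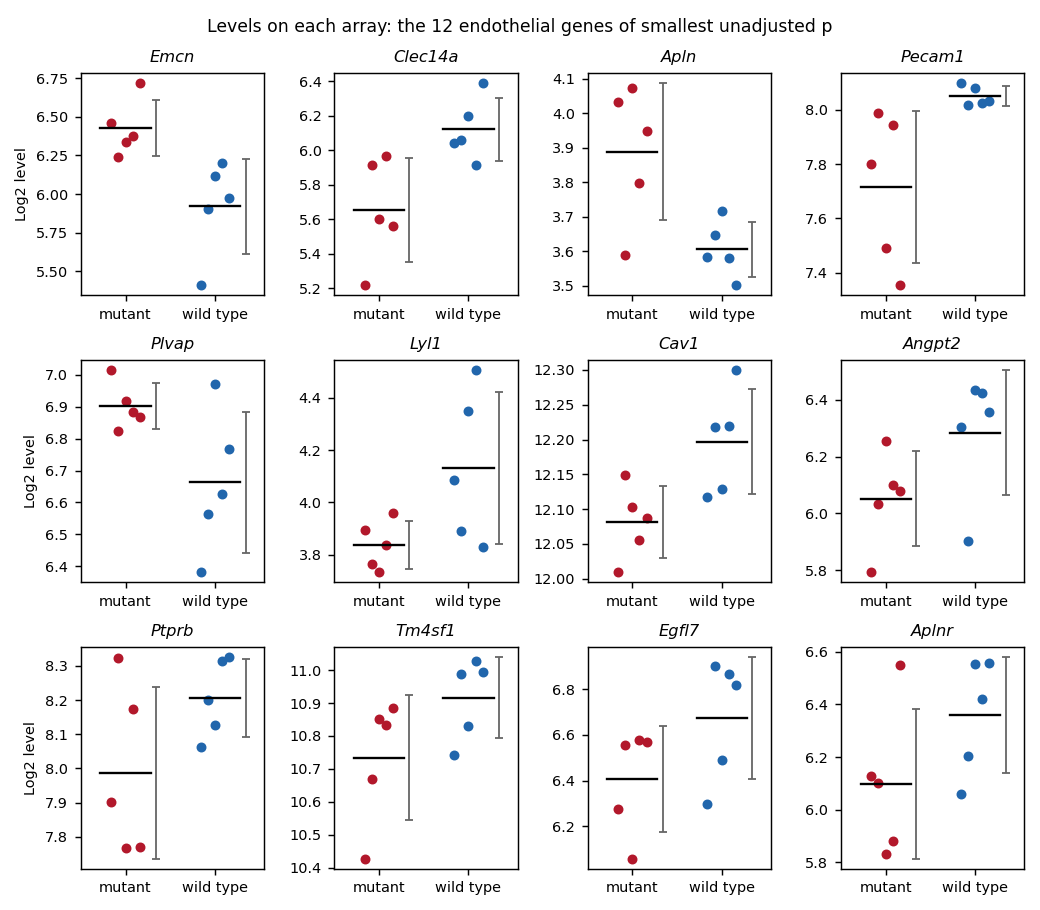
Log2 level (y axis, a range of its own in each panel) on each array for the 12 endothelial genes of smallest unadjusted p, with mutant arrays in red on the left and wild-type arrays in blue on the right. Horizontal lines are group means and grey bars mean ± SD (n = 5 each). Emcn and Pecam1 are the panels in which the groups do not overlap.

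For every receptor of VEGF and the angiopoietins on the list the groups overlapped, and none passed the test. Kdr encodes VEGFR2, the main signalling receptor for VEGF-A. It had levels of 3.44, 3.50, 3.05, 3.31 and 3.47 on the mutant arrays, against 2.52, 3.34, 3.33, 3.33 and 3.34 on the wild-type arrays. Wild-type F11 was far below the other 9 arrays, and the log2 change of 0.18 ± 0.16 (SE) came to 0.02 without it. Flt1, the decoy-like receptor VEGFR1, had a log2 change of 0.01 ± 0.09 (SE), and Flt4, the VEGF-C and VEGF-D receptor of lymphatic endothelium, one of 0.12 ± 0.14. Tek encodes Tie2, the angiopoietin receptor. Tek stood at 6.40, 6.86, 6.42, 6.80 and 6.53 on the mutant arrays, against 6.60, 6.23, 6.56, 6.50 and 6.65 on the wild-type arrays, with a log2 change of 0.09 ± 0.11 (SE). Tie1 encodes the co-receptor of Tie2. Its levels were 3.31, 4.30, 4.04, 4.71 and 4.63 on the mutant arrays, against 4.13, 3.77, 4.37, 3.93 and 4.25 on the wild-type arrays. The mutant arrays of Tie1 spanned more than 1 log2 unit, from F12 to F19, with the whole wild-type range inside, and the log2 change was 0.11 ± 0.24 (SE), the widest error on the list.

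Ptprb, Angpt2 and Egfl7, grouped here with these receptors, had lower means in the mutant on their brightest probe sets, with overlapping groups. Ptprb encodes VE-PTP, a phosphatase that restrains Tie2. Its levels were 7.90, 8.32, 7.77, 8.17 and 7.77 on the mutant arrays, against 8.06, 8.20, 8.13, 8.31 and 8.33 on the wild-type arrays. Mutant F13 and F19 lay with the wild-type arrays and the other 3 mutant arrays below them all. The log2 change was -0.22 ± 0.12 (SE, limma adjusted p = 0.379). Angpt2 encodes angiopoietin-2, the context-dependent antagonist of Tie2 that activated endothelium releases. Angpt2 stood at 5.79, 6.03, 6.25, 6.10 and 6.08 on the mutant arrays, against 6.30, 5.90, 6.44, 6.42 and 6.36 on the wild-type arrays. Wild-type F14_2 was low, and without it the mutant arrays were below all the others. The log2 change was -0.23 ± 0.12 (SE, limma adjusted p = 0.361), or 0.055 with the brown fat covariate. A second Angpt2 probe set, too dim for the test, had a change of 0.12. Egfl7, a secreted endothelial protein, had levels of 6.28, 6.56, 6.06, 6.58 and 6.57 on the mutant arrays, against 6.30, 6.90, 6.49, 6.86 and 6.82 on the wild-type arrays, all mutant arrays being below the wild-type mean. Its change of -0.27 ± 0.14 (SE) on the brightest of 4 tested probe sets was not shared by the others, which had changes of -0.04, -0.03 and 0.08.

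The ligands of these receptors, mostly made by other cells of the wall, went both ways. Of 9 tested ligands and co-receptors 6 were higher and 3 lower in the mutant (5 and 4 after median centring), limma called 0, and 2 were at an unadjusted p under 0.05. Vegfd, a ligand of VEGFR3, had levels of 7.01, 7.61, 7.56, 7.30 and 7.18 on the mutant arrays, against 7.72, 7.45, 7.97, 8.07 and 7.76 on the wild-type arrays. The groups overlapped through wild-type F14_2 alone, and the log2 change was -0.46 ± 0.14 (SE, limma adjusted p = 0.177), but -0.14 without the 4 arrays of high skeletal muscle signal. Svep1, a matrix protein of lymphatic vessel development, had one of -0.21 (adjusted p = 0.247). Vegfa had a log2 change of 0.26 ± 0.18 and Angpt1, the agonist of Tie2 from mural cells, one of 0.02 ± 0.13 (SE).

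Among the Notch, apelin and sphingosine 1-phosphate genes the peptide and its receptor had opposite signs. Apln encodes apelin, a peptide that endothelial tip cells and adipocytes secrete. Its levels were 4.03, 3.59, 4.07, 3.80 and 3.95 on the mutant arrays, against 3.58, 3.65, 3.72, 3.58 and 3.50 on the wild-type arrays. Mutant F13 lay with the wild-type arrays and the other 4 mutant arrays above them all. The log2 change was 0.28 ± 0.09 (SE, limma adjusted p = 0.200). Aplnr, the apelin receptor, had levels of 6.13, 6.10, 5.83, 5.88 and 6.55 on the mutant arrays, against 6.06, 6.20, 6.55, 6.42 and 6.56 on the wild-type arrays. Mutant F20 was as high as the highest wild-type arrays, and the log2 change was -0.26 ± 0.15 (SE, limma adjusted p = 0.404), against 0.04 on a dimmer probe set. S1pr1, the sphingosine 1-phosphate receptor that steadies endothelial junctions, had a log2 change of 0.16 ± 0.10 (SE). Of 5 tested partners of the apelin and sphingosine 1-phosphate pathways 2 were higher and 3 lower, with 0 called by limma and 1 at an unadjusted p under 0.05. It was Sphk2, a kinase that makes sphingosine 1-phosphate, whose levels lay between 4.42 and 4.57 in the mutant and between 4.61 and 4.86 in wild type, a log2 change of -0.19 (limma adjusted p = 0.214). Dll4, an endothelial Notch ligand, was too dim for the main test. Its levels were between 2.91 and 2.99 in the mutant and between 2.87 and 3.03 in wild type, with an adjusted p of 0.683 in a fit without the filter.

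The Notch receptors, other ligands and targets that could be tested were lower in the mutant for 8 of 8, with a median log2 change of -0.14. Over all tested probe sets 57.6% were lower, with a median of -0.03. Limma called 0 of the 8, and 2 were at an unadjusted p under 0.05 (25%, against 15.3% of all tested probe sets). After quantile normalisation 6 of the 8 were lower. Jag2, a ligand too dim for the test, had a change of 0.14. Hey1, a transcriptional repressor switched on by Notch in arterial endothelium and smooth muscle, had levels of 3.99, 3.98, 3.85, 4.02 and 3.99 on the mutant arrays, against 4.42, 4.14, 4.49, 4.32 and 4.44 on the wild-type arrays. Every mutant array was below every wild-type array, and the log2 change was -0.40 ± 0.07 (SE, limma adjusted p = 0.0672). The adjusted p of Hey1 ran from 0.030 without wild-type F14_2 to 0.146 without wild-type F11 when arrays were left out singly. Hey1 was too dim to pass a filter at the 75th percentile. Jag1, the Notch ligand of endothelium and smooth muscle, stood at 7.83, 8.02, 8.14, 8.23 and 8.03 on the mutant arrays, against 8.30, 8.32, 8.37, 8.39 and 8.44 on the wild-type arrays. These groups did not overlap either, and the log2 change was -0.31 ± 0.08 (SE, limma adjusted p = 0.122). Such separation, with the mutant lower, was found in 2.5% of all tested probe sets. With the brown fat mean as a covariate the changes were -0.41 for Hey1 (adjusted p = 0.570) and -0.06 for Jag1 (adjusted p = 0.906). The receptors Notch1 and Notch4, which endothelial cells express, had changes of -0.04 and -0.01. Mural cell genes had lower means as well, as given further on, and their part in the Notch values was not tested.

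Most transcription factors of the endothelial lineage had changes smaller than their array spread. Of the 8 tested, 1 was higher and 7 lower in the mutant, but 4 and 4 after quantile normalisation, which turned the small changes of Fli1, Sox7 and Sox18 positive. Limma called 0, and 1 was at an unadjusted p under 0.05. Fli1 and Erg, the ETS factors that maintain endothelial gene expression, had log2 changes of -0.002 ± 0.116 and -0.12 ± 0.11 (SE). Sox7, Sox17 and Sox18, the SOX factors of vascular development, had changes of -0.05, -0.13 and -0.01. On a dimmer tested probe set the change of Sox17 was -0.35 (limma adjusted p = 0.377). Tal1 and Lyl1 are helix-loop-helix factors shared by endothelial and blood cells. Tal1 had a change of 0.05 ± 0.06 (SE). Lyl1 stood at 3.89, 3.76, 3.73, 3.84 and 3.96 on the mutant arrays, against 4.09, 3.89, 4.35, 4.51 and 3.83 on the wild-type arrays. The mutant arrays were close together, and wild-type F14_2 and F17 lay among them. The change of Lyl1 was -0.29 ± 0.13 (SE, limma adjusted p = 0.295). Gata2, a zinc finger factor that endothelium shares with mast cells, had a change of -0.11 ± 0.16 (SE). With the brown fat covariate the change of Gata2 was 0.45 ± 0.22 (SE). Of 5 tested mast cell genes 3 were higher and 2 lower in the mutant, with 0 called and 0 at an unadjusted p under 0.05.

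None of the activation molecules passed the test. Vcam1 encodes VCAM-1, the ligand of leukocyte integrin VLA-4, which smooth muscle also makes when activated. Its levels were 6.89, 7.66, 7.29, 7.37 and 7.13 on the mutant arrays, against 7.47, 7.16, 7.48, 7.74 and 7.60 on the wild-type arrays. F12 was lowest, and the log2 change was -0.22 ± 0.14 (SE, limma adjusted p = 0.469). It came to -0.13 without mutant F12 alone, to 0.05 without the 4 arrays of high skeletal muscle signal and to 0.021 with the brown fat covariate. Icam1 encodes ICAM-1, the ligand of the leukocyte integrin LFA-1. It had levels of 5.80, 6.13, 6.04, 5.74 and 5.58 on the mutant arrays, against 5.83, 5.27, 6.07, 5.97 and 5.92 on the wild-type arrays, and a log2 change of 0.05 ± 0.16 (SE, limma adjusted p = 0.903). That change ran from -0.089 to 0.11 when single arrays were left out and was 0.31 without the same 4 arrays. Vwf encodes von Willebrand factor, stored with P-selectin in the Weibel-Palade bodies of endothelial cells. Vwf stood at 8.76, 8.83, 8.96, 9.02 and 8.99 on the mutant arrays, against 8.83, 8.81, 9.03, 9.16 and 9.01 on the wild-type arrays, and its log2 change was -0.06 ± 0.08 (SE), with an interval from -0.24 to 0.12. With the brown fat covariate the change of Vwf was 0.14. Selp, the gene of P-selectin, had a change of 0.05 ± 0.07 (SE). Sele, the gene of E-selectin, which endothelium makes on stimulation by cytokines, was too dim for the test. Its levels lay between 2.45 and 2.49 in the mutant and between 2.44 and 2.47 in wild type, with an adjusted p of 0.511 in a fit without the filter.

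Genes that accompany endothelial activation were examined as well. Of 5 tested genes induced by cytokines 2 were higher and 3 lower in the mutant, with 0 called by limma and 0 at an unadjusted p under 0.05, and the chemokine and cytokine genes Ccl2, Cxcl1 and Il6 were too dim to test. Irf1, an interferon-responsive transcription factor, had the largest change of the 5, -0.19 on the log2 scale. Of the leukocyte integrins and ligands that bind ICAM-1, VCAM-1 and the selectins 4 were tested, 1 higher and 3 lower (2 and 2 after quantile normalisation), with 0 called and 0 at an unadjusted p under 0.05. Of 8 tested macrophage genes all 8 were higher in the mutant, with a median log2 change of 0.16, 0 called by limma and 2 at an unadjusted p under 0.05.

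Promoter sequence is shown for Emcn, Apln, Clec14a and Lyl1, the genes at an unadjusted p under 0.05 that had a promoter window to hand, so that the E-box and ETS letters can be looked for beside their values. Each is the 250 bases upstream of the annotated start, 5′ to 3′ on the gene's strand, from RefSeq on the mouse build GRCm38.p6. Capitals mark AGGAAG, a core that ETS factors such as Fli1 and Erg bind, on either strand.
Emcn (chr3:137340828-137341077, plus strand): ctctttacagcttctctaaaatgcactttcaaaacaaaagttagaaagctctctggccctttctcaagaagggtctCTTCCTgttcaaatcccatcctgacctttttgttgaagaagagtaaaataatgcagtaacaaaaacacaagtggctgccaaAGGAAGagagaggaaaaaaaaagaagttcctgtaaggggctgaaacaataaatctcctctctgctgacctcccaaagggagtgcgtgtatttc
Apln (chrX:48034854-48035103, minus strand): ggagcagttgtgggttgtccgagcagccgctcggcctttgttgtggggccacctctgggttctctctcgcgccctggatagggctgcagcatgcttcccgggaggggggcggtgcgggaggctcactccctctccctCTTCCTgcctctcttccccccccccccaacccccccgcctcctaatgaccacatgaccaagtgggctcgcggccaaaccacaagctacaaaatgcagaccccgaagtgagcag
Clec14a (chr12:58269259-58269508, minus strand): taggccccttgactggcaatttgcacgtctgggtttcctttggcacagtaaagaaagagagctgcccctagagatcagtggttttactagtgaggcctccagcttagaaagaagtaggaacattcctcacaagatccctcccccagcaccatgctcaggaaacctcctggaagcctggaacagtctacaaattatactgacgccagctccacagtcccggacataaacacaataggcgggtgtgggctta
Lyl1 (chr8:84701207-84701456, plus strand): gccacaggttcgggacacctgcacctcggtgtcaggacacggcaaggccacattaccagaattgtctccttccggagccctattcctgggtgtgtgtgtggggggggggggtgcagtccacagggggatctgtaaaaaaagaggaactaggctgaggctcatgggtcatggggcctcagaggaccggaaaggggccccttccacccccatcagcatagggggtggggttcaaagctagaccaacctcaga

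The Emcn window held 2 such hexamers, starting 174 and 93 bases before the start, the Apln window 1, at 113 bases, and the Clec14a and Lyl1 windows 0. Windows were to hand for 21 of the 39 genes, with 29 windows in all because some genes have several starts. Searched on both strands, AGGAAG was in 11 of the 29 (37.9%), against 29.5% of 32851 windows of the same length over all genes. CACGTG, the E-box that the Npas2 and Bmal1 pair binds, was in 0 of the 29, against 6.02% of all windows. AGATAA, a hexamer that Gata2 and related factors bind, was in 2 of the 29 (6.90%), against 9.99% of all. A match is a stretch of letters and not a bound site, and 0 matches says only that these letters are not in these windows.

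Further probe sets of the same genes were compared where they were bright enough. The 38 genes had 71 probe sets that name them alone, of which 54 were tested and 0 called by limma. At an unadjusted p under 0.05 there were 8 of the 54, beside 15.3% of all tested probe sets. Among 11 genes with several tested probe sets, 8 had the same sign on all of them. Aplnr, Egfl7 and Mmrn2 did not. Among the 8, Clec14a differed most in size, with the changes of -0.47 and -0.17 given above. For 18 genes, Emcn, Pecam1, Plvap, Apln and Lyl1 among them, a single probe set carries the value.

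**Figure D3:**
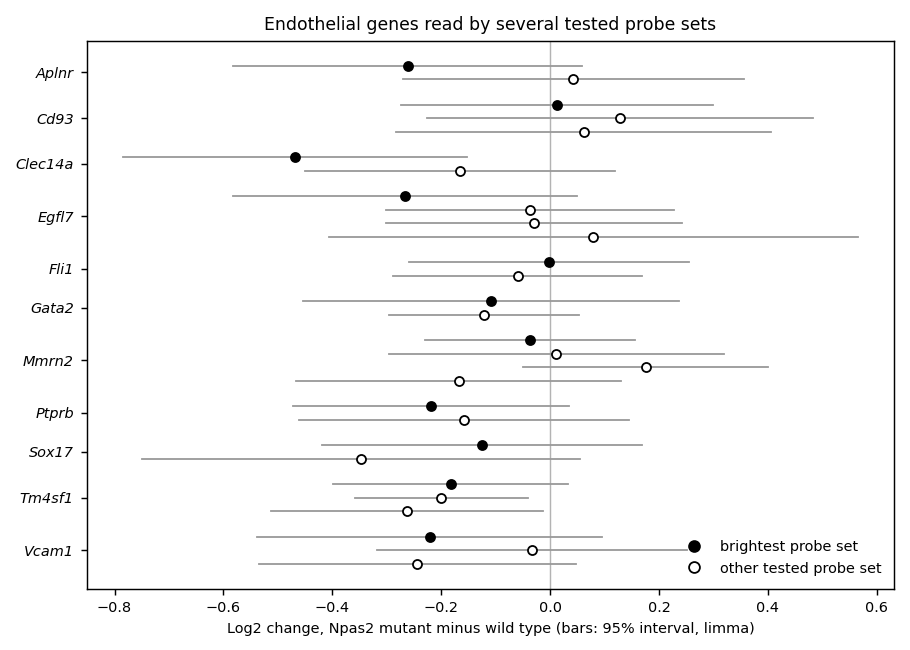
Log2 change, Npas2 mutant minus wild type (x axis), for every tested probe set of the 11 endothelial genes read by more than 1 (y axis). Filled points are the brightest probe set, open points the others, and bars 95% intervals from limma. Aplnr, Egfl7 and Mmrn2 have points on both sides of 0, and no probe set passed the adjusted test.

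The mean level of the endothelial genes differed between the groups by less than the array spread. Averaged over the 36, the log2 level was 6.09, 6.28, 6.12, 6.23 and 6.16 on the mutant arrays, against 6.13, 6.13, 6.27, 6.25 and 6.27 on the wild-type arrays. The ranges overlapped almost wholly, and the difference was -0.04, beside an SD within groups of 0.08 in the mutant and 0.07 in wild type (n = 5 each). A further 27 endothelial genes outside the list, among them Nos3, Eng and Ramp2, were counted in the same way, with 12 higher and 15 lower in the mutant (7 and 20 after median centring, 14 and 13 after quantile normalisation), a median change of -0.02, 0 called by limma and 3 at an unadjusted p under 0.05. These were Tfpi (0.63), Jam3 (-0.26) and Ets2 (-0.22), with adjusted p values between 0.203 and 0.279.

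Genes of particular vessel types had different counts, and some of these genes, such as Hey1, were also counted in a list above. Of 8 tested arterial genes 2 were higher and 6 lower in the mutant, with 0 called by limma. At an unadjusted p under 0.05 there were 4 (50%, against 15.3% of all tested probe sets). These were Hey1, Bmx (-0.33) and Fbln5 (-0.32), all lower, and Sema3g, a semaphorin of arterial endothelium, at 0.37 ± 0.11 (SE, limma adjusted p = 0.181), whose groups did not overlap. Of 8 genes of capillary and fat endothelium 7 were higher and 1 lower, with a median of 0.19, 0 called by limma and 0 at an unadjusted p under 0.05. All 4 tested lymphatic genes were higher in the mutant, again with 0 called and 0 at an unadjusted p under 0.05, and Prox1, the defining lymphatic factor, was too dim to test. Of 3 venous genes 2 were higher and 1 lower, none of them called or at an unadjusted p under 0.05. Brown fat genes, whose tissue is rich in capillaries, were higher in the mutant for 9 of 9 (8 after median centring), with 0 called by limma and 7 at an unadjusted p under 0.05, and their part in the capillary values was not tested.

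**Figure D4:**
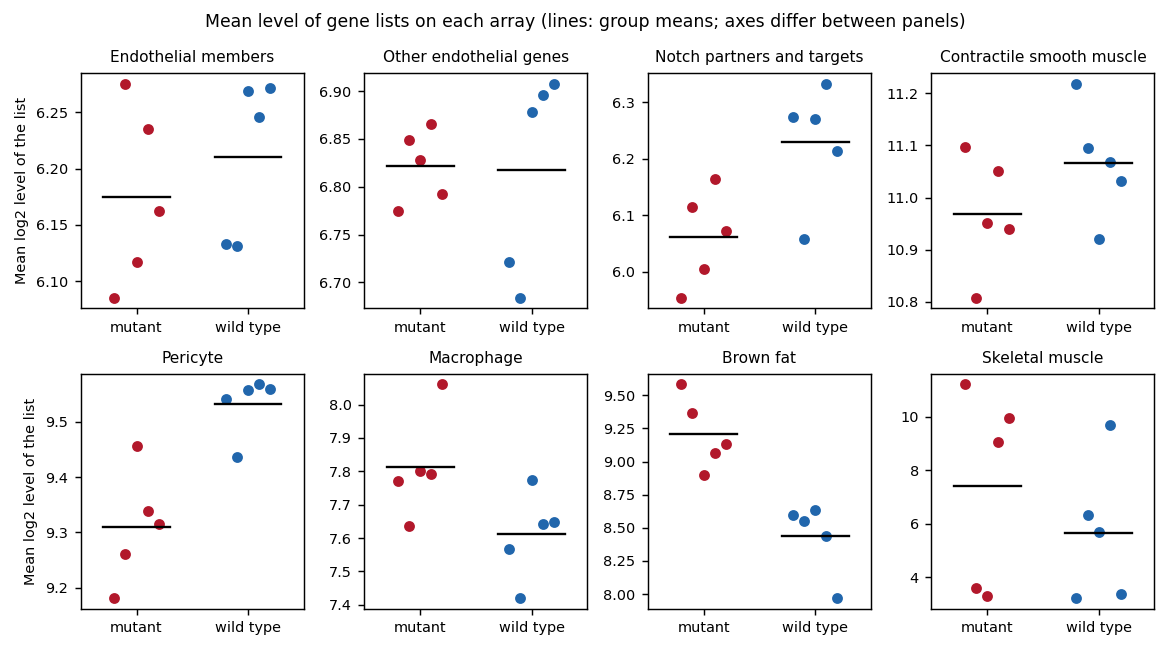
Mean log2 level of 8 gene lists on each array (y axes differ between panels), with mutant arrays in red on the left and wild-type arrays in blue on the right. Lines are group means (n = 5 each). The endothelial panels overlap, the brown fat arrays of the mutant lie above all wild-type arrays, and the skeletal muscle means run from 3.29 to 11.22 in the mutant and from 3.22 to 9.71 in wild type.

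Mural cells beside the endothelium had lower means in the mutant. All 6 pericyte genes were lower, against 57.6% of all tested probe sets, with a median log2 change of -0.25. Limma called 0 on their brightest probe sets, and 4 were at an unadjusted p under 0.05 (66.7%, against 15.3% of all tested probe sets). The pericyte list mean lay between 9.18 and 9.46 in the mutant and between 9.44 and 9.57 in wild type. Rgs5 had a change of -0.37 ± 0.09 (SE) on its brightest probe set (limma adjusted p = 0.124) and Abcc9, a potassium channel subunit, one of -0.29 ± 0.08 (adjusted p = 0.144). Of 9 contractile smooth muscle genes 1 was higher and 8 lower, with 0 called by limma and 4 (44.4%) at an unadjusted p under 0.05. Among the 4 were Myh11 (-0.18) and Lmod1 (-0.26), whose groups did not overlap. Over all tested probe sets 2.5% were separated with the mutant lower. On the same arrays 20 of the 36 endothelial genes were lower. The part of the mural cells in the endothelial values was not tested.

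The 6 endothelial genes at an unadjusted p under 0.05 were followed in fits that take the brown fat or skeletal muscle signal into account. With the brown fat mean as a covariate the log2 change was 0.60 for Emcn, 0.26 for Plvap and 0.24 for Apln, but -0.11 for Clec14a, -0.54 for Pecam1 and -0.53 for Lyl1, with wider standard errors (median 0.22 over the 36 genes) because the covariate itself separates the groups. Mutant F12, F19 and F20 and wild-type F16 were then left out, which leaves 2 mutant and 4 wild-type arrays. Of these, wild-type F14_2 and F15 still had skeletal muscle means of 6.34 and 5.68. In that fit the changes were 0.44 for Emcn, 0.20 for Plvap, 0.22 for Apln, -0.42 for Clec14a, -0.32 for Pecam1 and -0.29 for Lyl1. All 6 kept their sign in both fits, and none passed the adjusted test in either. The SD over the mutant arrays was the larger for 22 of the 36 endothelial genes (61.1%), near the 53.2% of all tested probe sets. Mutant F12 had the lowest value of its group for 13 of the 36 and F20 for 9, while wild-type F11 and F14_2 had it for 12 each.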

How the data were processed

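The authors deposited log2 expression values, a value per probe set and array, for 10 arrays, 5 per group. GCRMA and MAS5 are the tools that the submitters' processing notes list, without versions, and which of them made the table is not stated. The log2 scale was inferred from the deposited values, which lay between 1.10 and 14.74, with upper quartiles between 5.40 and 5.55 on every array. No scan dates were to hand, so no batch was examined, and 5 arrays per group set the precision. Arrays of a group correlated at 0.988 to 0.996 across probe sets.

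Of 45101 probe sets 64 were controls and were left out of the tests. Probe sets exceeding the median of their array on 5 or more arrays were tested, which kept 22340. The deposited values were fitted without further normalisation with limma 3.58.1 (lmFit and eBayes) in R 4.3.3. The contrast was mutant minus wild type, two-sided, and p values were adjusted by Benjamini-Hochberg over the 22340, with 0.05 as threshold. SE values and 95% intervals are those of limma, and SD values are over the 5 arrays of a group. The platform's gene annotation is old, and 34958 probe sets had 1 gene in it. Symbols of the comparison lists were updated by gene identifier to GRCm38.p6. The fit was tested on simulated data.

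Values in every array are given for the 12 tested members of smallest p and for Pecam1, Cdh5, Kdr, Tek, Tie1, Vwf, Icam1 and Vcam1. Hey1, Jag1, Vegfd and Sphk2 were added after their values were seen, and so was the choice of promoters shown. The members and all lists were chosen with earlier results of these data known, so no p was adjusted over a list. Alternatives were the filter, quantile normalisation, median centring (over all probe sets), the variance model, array weights, the one-way analysis of the series design, other thresholds, other probe set rules, skeletal muscle and brown fat means as covariates, and leaving out each array. Leaving out together the 4 arrays of highest skeletal muscle signal was added after seeing the data, as were further refits of single genes.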

Additional observations from a re-analysis of the deposited data

Results flagged for a closer look

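In 8 of the 76 groups of 5 arrays examined over the endothelial genes with values, 1 array lay far from the other 4, judged by its gap to the nearest array over the range of the group (critical value 0.71). Chance flags about 1 group in 20. Of the 8, 1 was in the mutant group, where Tal1 had a log2 level of 3.42 on F19 and the next array stood at 3.29. The other 7 were wild-type arrays. Kdr had a level of 2.52 on F11, against 3.33 on the next array, the largest such gap. Mmrn2 stood at 7.60 on F11, with the next array at 7.86. Flt4 had a level of 4.57 and Sox18 one of 5.32 on F16, with the next arrays at 5.18 and 5.51. Angpt2 stood at 5.90 on F14_2, with the next array at 6.30. Sox7 had a level of 5.02 on F15, above a next array at 4.86, and Gata2 one of 5.08 on F17, above a next array at 4.67. Wild-type F11 and F16 were named for 2 genes each. F16 was 1 of the 4 arrays rich in skeletal muscle signal, with a list mean of 9.71, and F11 was not, at 3.22. The part of tissue makeup in these values was not tested.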

How the results depend on the processing

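The count of endothelial genes called was 0 under each of the alternatives, those chosen after seeing the data included. The count of all probe sets called, 48, was 17 with no filter on dim probe sets, 141 with the filter at the 75th percentile, 13 by the one-way analysis, 6 at a threshold of 0.01 and 191 at 0.1, 7 with the skeletal muscle covariate and 2 with the brown fat covariate. It ran from 9 (without wild-type F16) to 43 (without wild-type F14_2) when arrays were left out singly, and was 34 without F11 and 10 to 23 without any of the other 7. Without mutant F12, F19 and F20 and wild-type F16 it was 0 by limma, with 1549 at an unadjusted p under 0.05. Calls higher and lower in the mutant, 21 and 27, became 5 and 12 with no filter, 54 and 137 at a threshold of 0.1 and 2 and 5 with the skeletal muscle covariate. The brown fat covariate left 0 higher and 2 lower. The causes were not tested, apart from the fewer arrays and the changed number of probe sets that some alternatives bring by construction. No scaling moved the median of all tested probe sets by over 0.1.

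The median change of the endothelial genes, -0.02, was -0.12 with the 75th percentile filter, which tests 24 of them, 17 of these lower. All probe sets tested there had a median of -0.05, with 61.9% lower. With the brown fat covariate the median of the endothelial genes was 0.092, and 13 rather than 20 of 36 were lower. All tested probe sets then had a median of -0.02, with 52.9% lower. No test compared these shares. The 19 genes given array by array were refitted under each alternative that changes a log2 change or its adjusted p. Some of these alternatives were chosen for them after seeing the data. The refits gave 413 values, as 5 genes (Apln, Cdh5, Kdr, Lyl1 and Tie1) did not pass the 75th percentile filter. Of the 413 values 404 kept their direction without passing the threshold and 9 reversed, in 7 genes. The filters, the variance model and the one-way analysis leave the log2 change as it is and alter its adjusted p alone. No direction could reverse there, so the 404 overstate how often direction was put to a test. Without probe sets of suffix _x_at or _s_at, which may cross-hybridise, Egfl7 was read at -0.04. With the brown fat covariate Cav1 was at 0.0048, Angpt2 at 0.055, Tm4sf1 at 0.16, Vcam1 at 0.021 and Vwf at 0.14, and without the 4 arrays Vcam1 was at 0.047. Tie1 kept its direction with the brown fat covariate, at 0.67 ± 0.43 (SE). Leaving out single arrays gave Tie1 changes from -0.020 (without mutant F19) to 0.33 and Icam1 changes from -0.089 (without wild-type F14_2) to 0.11, with -0.02 without mutant F13. The small changes of Cdh5 (0.042 to 0.12), Tek (0.025 to 0.15) and Vwf (-0.098 to -0.011) also moved by over 1.5 times on leaving out single arrays. Genes near the arrays' lower end, Dll4 and Sele among them, could have changed without a visible signal. No paired analysis was possible because the groups share no replicate numbers.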
